A study of Mus musculus with 8 samples.

Results

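The genes for chemokines, interleukin ligands and a few related secreted cytokines were examined in ID8 IP2 Notch3IC and Control cells. Members were defined by symbol, with earlier results of these data known. They were Ccl, Cxcl or Il followed by a number (with a or b for the interleukins), plus Cx3cl1, Lif, Tnf, Tslp, Csf2, Csf3 and Mif. The count tables listed 71 such genes among 23284 mouse gene symbols, and 23 of them had at least 10 counts in at least 2 libraries and are described here. Of the remaining 48, 27 had a few counts and 21 were at 0 in every library. Just inside the limit, Cxcl3 had 12 and 11 counts in its highest libraries. Just outside it, Cxcl9 had 14 and 9, Ccl9 had 13 and 9, Il25 had 25 and 8, and Ccl8 had 14 and 3.

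ID8 is a line of mouse ovarian surface epithelium that grows as an ovarian cancer model in mice, and ID8 IP2 is a line derived from it. All lines carried a lentiviral luciferase and mCherry reporter. Notch3IC cells were also infected with a pCCL lentivirus for the HA-tagged intracellular domain of Notch3 (codons 1664 to 2318) with IRES-GFP, a form that signals without a ligand, and Control cells with the empty pCCL vector. Sets 1 to 4 are matched pairs of these lines, each from a separate lentiviral infection, with 1 RNA library per line, 8 libraries in all, so p-values measure the spread between 4 lines per condition of 1 parental line. The cells were grown in culture with serum and insulin-transferrin-selenium supplement, and the study's methods report that later testing pointed to mycoplasma in every ID8 IP2 line, Control and Notch3IC alike. Its part in the levels of these inflammatory genes was not tested. Whole counts of reads per gene were deposited, with 15524262 to 28208072 counts per library.

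Chemokines are small secreted proteins that bind receptors on the surface of leukocytes and tumor cells and direct their migration. They are grouped by the spacing of their first cysteines into CXC, CC and CX3C families. Interleukins act through receptor complexes that feed into JAK-STAT or NF-kB signaling. Ovarian tumor cells are known sources of both, and ascites fluid is rich in IL-6 and CXCL12. In the nucleus the Notch intracellular domain joins the DNA-binding protein RBPJ and switches on target genes such as Hey1 and Heyl.

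The labels were checked first on Notch3 and these targets. A normalized count is the count scaled to a common library size, and values are given in the order of Sets 1 to 4 throughout. Notch3 had 38.6, 40.6, 70.8 and 42.0 normalized counts in Control and 4319, 467, 9215 and 5839 in Notch3IC. Hey1 had 29.7, 20.3, 56.4 and 34.1 in Control and 4077, 438, 10636 and 8009 in Notch3IC. Heyl had 2, 0, 2 and 0 raw counts in Control and 1927, 147, 7460 and 4628 in Notch3IC. Every Notch3IC library was above every Control library for these genes, and the Notch3IC library of Set 2 had the lowest value of its group in each. Reads from the insert and from the endogenous Notch3 gene cannot be told apart in the counts. Over all genes tested, the first principal component (50.6% of the variance) placed the Notch3IC library of Set 2 at -3.42, between the Control libraries (-48.2 to -20.4) and the other Notch3IC libraries (46.7 to 57.1). The second (28.8%) set both libraries of Set 1 apart, at 57.8 and 45.3 against -32.4 to -7.70.

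Of the 21 ligand genes that passed edgeR's expression filter, 5 were higher in Notch3IC cells and 1 was lower. Il33, Cxcl12, Cx3cl1, Ccl20 and Il6 rose and Lif fell, where a call needed a Benjamini-Hochberg adjusted p below 0.1 from edgeR's quasi-likelihood test over 12430 genes and a log2 fold change reaching 1 or -1. Of all genes tested, 3.4% were called higher and 0.74% lower. Il6 reached 10 counts in none of the Control libraries and Ccl20 in 1, so both passed the filter through the Notch3IC libraries, and with 10 counts required in every library both left the test and 3 members were called higher, beside 301 higher and 73 lower over all genes. The number of members called is therefore a description of these genes and not a measure of the whole family. In bulk RNA, more expressing cells and more RNA per cell cannot be told apart. The median log2 fold change was 0.40 over the members tested and -0.01 over all genes tested. It was 0.05 with 10 counts required in every library, 0.17 without the Notch3IC library of Set 2, 0.25 without that of Set 4, and 0.26 and 0.17 without Sets 1 and 4. No overlap between the 4 Notch3IC and the 4 Control libraries was seen for 6 members that were above (the 5 called and Il7), where 7.08% of all genes tested were, and for 1 that was below (Lif), where 3.75% were. By family, 1 of 5 tested CXC genes, 1 of 6 CC genes, the single CX3C gene and 2 of 7 interleukins were called higher, and 1 of the remaining 2 cytokines, Lif and Mif, was called lower.

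**Figure D1:**
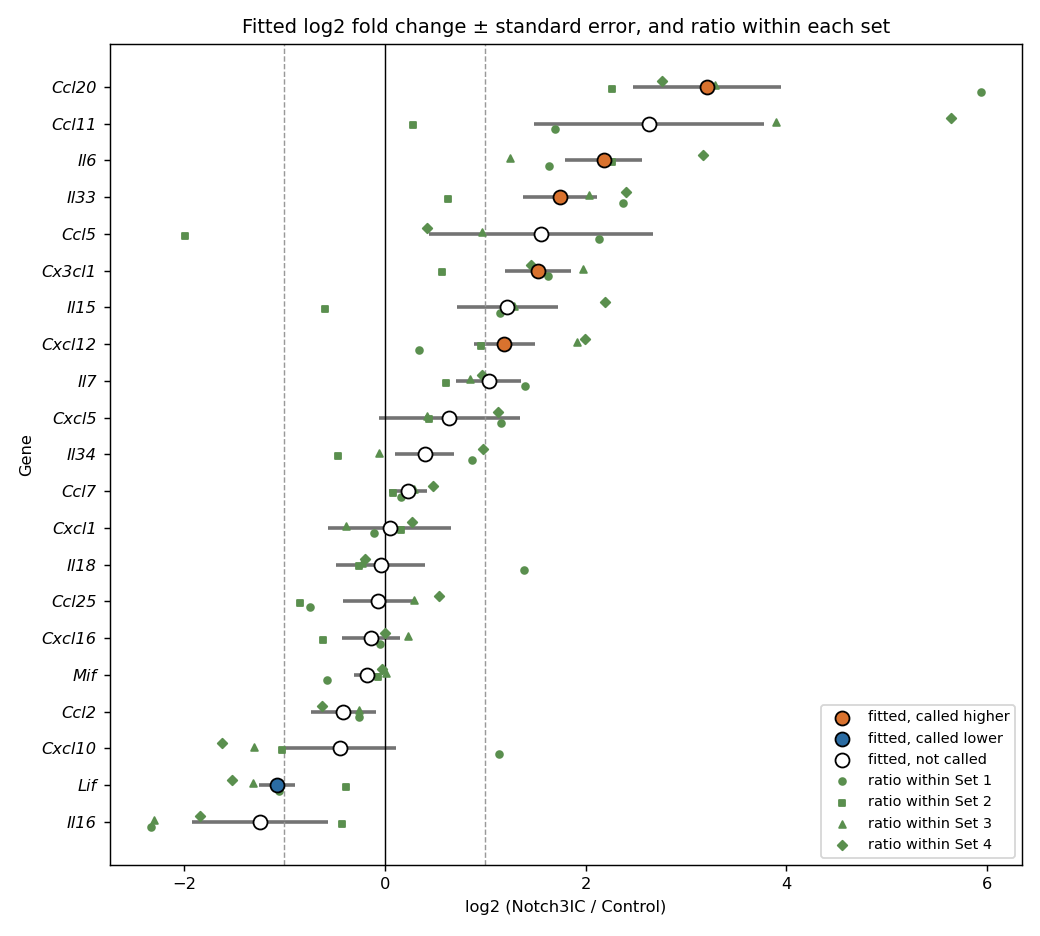
Fitted log2 fold change of Notch3IC against Control for the 21 ligand genes tested (large circles, with bars of 1 standard error), with the log2 ratio within each of Sets 1 to 4 as small green symbols. Filled circles are the 5 genes called higher and the 1 called lower, dashed lines mark the fold limit of 1, and the squares of Set 2 lie nearest 0 for most genes whose sets share a direction.

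Treating the set as a block, since each set is a matched pair, gave 6 members higher and 2 lower. All 6 genes called with condition alone kept their call, and Ccl11 (higher) and Il16 (lower) joined them. The edgeR adjusted p with the block was 0.0255 for Ccl20, 0.0280 for Cx3cl1 and 0.0301 for both Il6 and Lif. It was 0.0310 for Il33 and 0.0495 for Cxcl12. Ccl11 reached 10 counts in none of the Control libraries, so it met the count rule through the Notch3IC libraries of Sets 3 and 4. Its call rests on few Control counts. With the block, 5.19% of all genes tested were called higher and 2.53% lower. The fits that left out a library or a set, given next and in later paragraphs, had condition as the only term. Leaving out libraries or sets was not combined with the block. Without the Notch3IC library of Set 2, 7 members were called higher, with Il7 and Il15 added, and 2 lower, with Il16 added, while the calls over all genes also went up, from 423 higher and 92 lower to 702 and 305. Without Set 1, 5 were called higher, with Cx3cl1 lost and Cxcl15, which then passed the filter, added, and Lif remained lower, beside 399 higher and 151 lower over all genes. All 6 lost their call when the Control library of Set 3 or 4, or either whole set, was left out, where calls over all genes also dropped, to 75 and 99 higher and 8 and 11 lower without those Control libraries, to 1 higher and 0 lower without Set 3, and to 0 and 0 without Set 4. At an unadjusted edgeR p below 0.05, 8 and 7 members were higher and 1 lower without the Control library of Set 3 or 4, where 1205 and 1110 of all genes were higher and 560 and 573 lower, and 6 were higher and 1 lower without Set 3 or without Set 4, where 806 and 742 of all genes were higher and 295 and 269 lower. Without the Notch3IC library of either set, Il6 was the 1 member called higher and Lif the 1 called lower, beside 201 and 155 higher and 29 and 16 lower over all genes. Over all 12 of these smaller fits the log2 fold changes ranged from 2.81 to 3.58 for Ccl20, 1.76 to 2.43 for Il6, 1.55 to 2.23 for Il33, 1.33 to 1.77 for Cx3cl1, 0.99 to 1.56 for Cxcl12 and -1.31 to -0.90 for Lif.

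Cxcl12 encodes the chemokine CXCL12 (SDF-1), which guides lymphocytes, progenitor cells and many tumor cells through CXCR4. Control lines had 25047, 18624, 10366 and 9694 normalized counts of it, and Notch3IC lines had 31655, 36150, 39062 and 38620. The Control lines spread over a 2.58-fold range with Set 1 highest, while the Notch3IC lines lay close together, and the groups did not overlap. Cxcl12 rose 2.28-fold between the group means, from 15932 ± 7308 to 36372 ± 3395 (SD, n = 4 each), a log2 fold change of 1.19 (standard error 0.30, edgeR adjusted p = 0.0720). The call was lost without the Control library of Set 2, 3 or 4 (adjusted p = 0.108, 0.182 and 0.183), without the Notch3IC library of Set 3 or 4 (0.180 and 0.199), or without the whole of Set 2, 3 or 4 (0.113, 0.406 and 0.463).

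Cx3cl1 encodes fractalkine, a chemokine made as a membrane-bound adhesion molecule and shed as a soluble attractant for monocytes, natural killer cells and T cells. Control lines had 96.1, 74.0, 89.9 and 94.3 normalized counts of Cx3cl1, against 297, 110, 356 and 259 for Notch3IC. Control lines were uniform, and the Notch3IC library of Set 2 was the only one of its group near them, still above all 4. The log2 fold change was 1.53 (standard error 0.33, edgeR adjusted p = 0.0456), a rise of 2.88-fold between the group means. Leaving out the Control or the Notch3IC library of Set 3 or 4 lost the call (adjusted p = 0.124 to 0.143), as did leaving out Set 1 (0.111), Set 3 (0.332) or Set 4 (0.381).

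Ccl20 encodes the only chemokine ligand of CCR6, which draws dendritic cells and Th17 cells to epithelia. It was nearly silent in Control, with 0, 3, 8 and 10 raw counts, and had 27, 13, 86 and 67 in Notch3IC. In normalized counts these were 0, 3.6, 7.7 and 7.9 against 30.2, 19.0, 79.0 and 56.6, and the groups did not overlap. Ccl20 rose by a log2 fold change of 3.21 (standard error 0.74, edgeR adjusted p = 0.0544), the largest among the members tested, on few Control counts. The call was lost without the Control library of Set 2, 3 or 4 (0.114, 0.143 and 0.143), the Notch3IC library of Set 3 or 4 (0.148 and 0.162), or the whole of Set 3 or 4 (0.323 and 0.382).

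Il33 encodes an interleukin-1 family alarmin held in the nucleus of epithelial and stromal cells and released on damage, where it acts on ST2 on lymphoid and mast cells. Control lines had 3583, 10932, 7086 and 4086 normalized counts of Il33, against 18508, 16964, 28996 and 21648 for Notch3IC. All 4 Notch3IC libraries were above all Control libraries, and Set 2 held both the highest Control and the lowest Notch3IC value. Il33 rose 3.35-fold between the group means, from 6422 ± 3381 to 21529 ± 5346 (SD, n = 4 each), a log2 fold change of 1.75 (standard error 0.37, edgeR adjusted p = 0.0441). Without the Control or the Notch3IC library of Set 3 or 4 the adjusted p was 0.117 to 0.139, and without Set 3 or Set 4 it was 0.303 or 0.373.

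Il6 and Lif belong to 1 cytokine family, since both signal through the shared receptor subunit gp130 to STAT3, and they moved in opposite directions. Il6, which encodes interleukin-6, had 8, 4, 7 and 5 raw counts in Control and 23, 17, 18 and 47 in Notch3IC, or 7.9, 4.8, 6.7 and 4.0 against 25.7, 24.9, 16.5 and 39.7 normalized counts. Its groups did not overlap, with Set 4 highest and Set 3 lowest in Notch3IC, and it rose by a log2 fold change of 2.18 (standard error 0.38, edgeR adjusted p = 0.0270). Lif, which encodes leukemia inhibitory factor, had 561, 506, 666 and 757 normalized counts in Control and 271, 388, 267 and 263 in Notch3IC. Here too the groups did not overlap, and the Notch3IC library of Set 2 stood above the other 3, which were nearly equal. Lif fell by a log2 fold change of 1.07 in size (standard error 0.18, edgeR adjusted p = 0.0247), from 623 ± 112 to 297 ± 60.7 (SD, n = 4 each). Both calls were lost without the Control library of Set 3 (adjusted p = 0.104 for each) or Set 4, where Il6 had 0.113 and Lif had 0.0973 with a log2 fold change of -0.96, under the limit of 1. Both were also lost without Set 3 (0.225 for Il6, 0.246 for Lif) or Set 4 (0.309 for each).

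**Figure D2:**
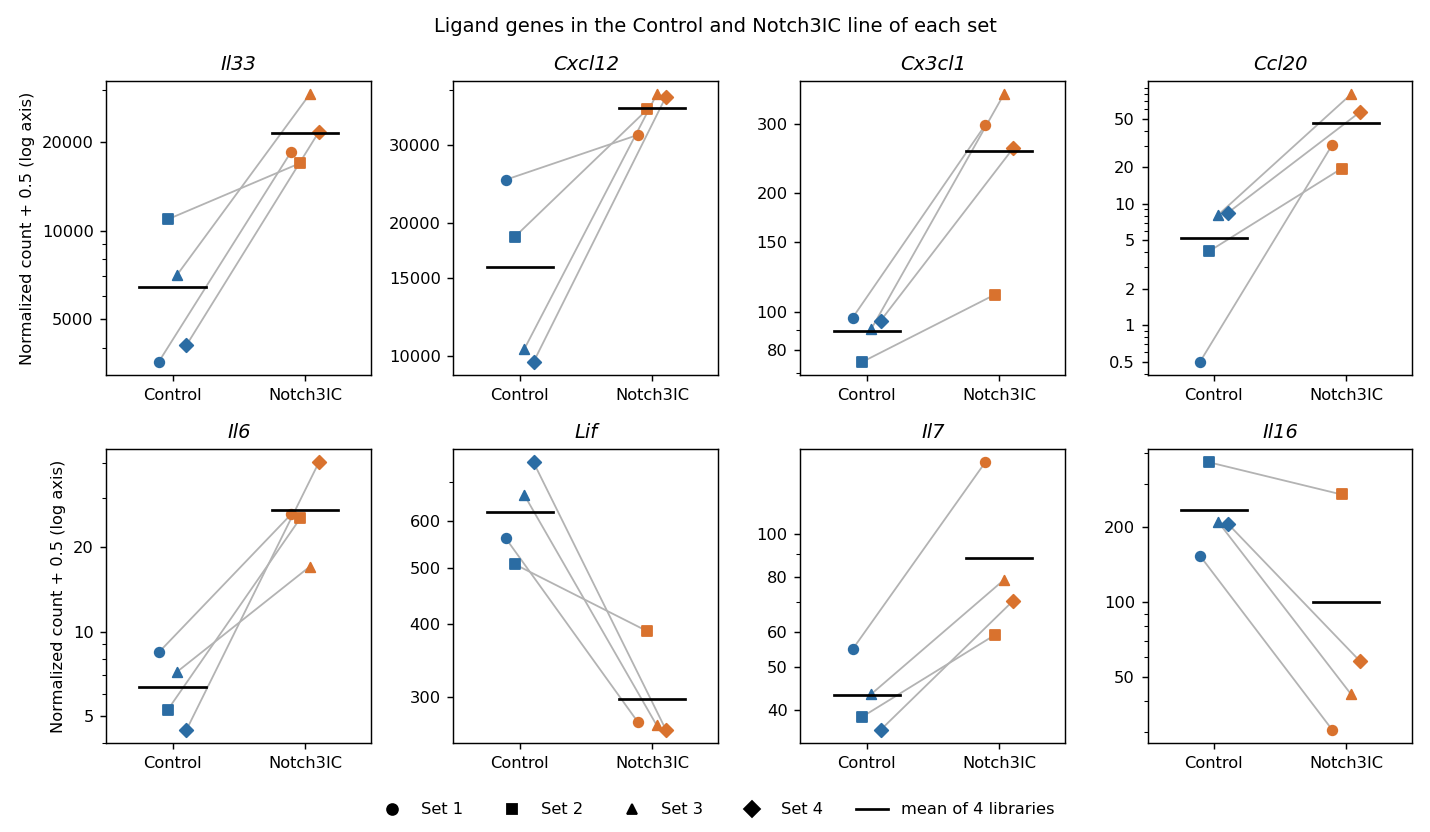
Normalized counts (plus 0.5, log axis, a different range in each panel) of 8 ligand genes in the Control (blue) and Notch3IC (orange) library of each set, joined by a line within a set; black bars are means of 4 libraries. Il33, Cxcl12, Cx3cl1, Ccl20, Il6 and Il7 do not overlap between groups and are higher in Notch3IC, Lif does not overlap and is lower, and Il16 is lower in each set with the Notch3IC library of Set 2 inside the Control range.

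For scale, Notch3 itself was not called when Set 3 or Set 4 was left out (adjusted p = 0.215 and 0.221). It kept its call in the other 10 of the 12 smaller fits, those without the Control library of Set 3 or 4 included (0.0854 and 0.0747), where the 6 ligand genes lost theirs.

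Because the introduced protein acts through RBPJ, the sequence upstream of the 6 called genes was read from RefSeq on GRCm38.p6, while the counts were made on mm9. Windows of 250 bases before an annotated start were available for 14 of the 23 members. The letters TGGGAA, the core that RBPJ prefers, were searched on both strands. They stood in at least 1 window of each of the 6 called genes, and in 6 of their 7 windows. Of the 18 member windows, which include those 7, 7 had a match (38.9%), against 21.6% of all 32851 mouse windows. By gene the shares were 50% of the 14 members and 24.1% of all genes with a window. The only other member with a match was Il16. A match describes these letters and not binding, and was not tested as a cause. Each sequence is given 5′ to 3′ on the plus strand, the coding strand of all 6 genes, with the match in capitals; TTCCCA is the same core read from the other strand.

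Ccl20, chr1:83116696-83116755: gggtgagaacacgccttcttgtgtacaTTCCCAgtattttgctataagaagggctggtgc
Cxcl12, chr6:117168338-117168397: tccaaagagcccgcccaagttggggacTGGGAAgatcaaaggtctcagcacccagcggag
Cx3cl1, chr8:94771994-94772053: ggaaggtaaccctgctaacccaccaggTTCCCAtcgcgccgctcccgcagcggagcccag
Lif, chr11:4257413-4257472: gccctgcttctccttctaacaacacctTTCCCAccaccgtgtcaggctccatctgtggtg
Il33, chr19:29945634-29945693, 1 of its 2 starts: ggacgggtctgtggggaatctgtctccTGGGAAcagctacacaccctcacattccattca

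For Il6 the whole window is shown, because its TGGGAA match, at bases -38 to -33 from the start, overlaps a match to the NF-kB consensus at -44 to -35. NF-kB is the factor through which microbial products and cytokines are known to induce Il6, and its consensus was found in 7 of the 18 member windows (38.9%, against 7.25% of all windows), and in 3 of the 7 windows of the called genes (42.9%), those of Ccl20, Il6 and Lif. The AP-1 letters TGANTCA, searched in the same way, were in 22.2% of member windows, in 2 of the 7 windows of the called genes (28.6%, those of Il6 and Lif) and in 6.75% of all windows.

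Il6, chr5:30012864-30013113: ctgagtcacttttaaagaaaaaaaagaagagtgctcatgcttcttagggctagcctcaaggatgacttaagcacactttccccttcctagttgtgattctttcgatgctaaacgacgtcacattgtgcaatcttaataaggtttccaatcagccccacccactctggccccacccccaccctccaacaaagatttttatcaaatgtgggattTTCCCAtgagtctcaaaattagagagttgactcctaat

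Il7, Il16 and Ccl11 were not called by edgeR with condition alone over all 8 libraries. Il7 was called with DESeq2 (adjusted p = 0.0353) and without the Notch3IC library of Set 2 (edgeR adjusted p = 0.0574). Il16 and Ccl11 were called with the block and when a library of Set 2 was left out. Il7, the growth factor of lymphoid precursors, had 54.5, 38.2, 43.0 and 35.7 normalized counts in Control and 144, 58.6, 78.1 and 70.1 in Notch3IC. The groups did not overlap and the Notch3IC library of Set 1 was the highest. The log2 fold change was 1.03 (standard error 0.32, edgeR adjusted p = 0.128), and with the block the adjusted p was 0.0342 with a log2 fold change of 0.98, just under the limit. Il16, a precursor of a chemoattractant for CD4+ cells, had 154, 365, 209 and 207 in Control and 30.2, 271, 42.3 and 57.4 in Notch3IC. Within each set the Notch3IC line was the lower one, but the Notch3IC library of Set 2 lay among the Control libraries, and the log2 fold change of -1.24 (standard error 0.68) had an adjusted p of 0.377 with condition alone. With the block it was -1.66 (adjusted p = 0.0410), and without that Notch3IC library it was -2.42 (edgeR adjusted p = 0.0070). In the annotation 17.4% of the exon bases of Il16 overlap Stard5 on the opposite strand, and whether counting used strand is not given in the sources used here. Ccl11, the eosinophil attractant eotaxin, had 0, 8, 1 and 0 raw counts in Control and 1, 8, 23 and 29 in Notch3IC, highest in the Notch3IC libraries of Sets 3 and 4. Its log2 fold change of 2.63 (edgeR adjusted p = 0.269, or 0.0960 with the block) depended on the Control library of Set 2, which held 8 of the 9 Control counts, and was 5.14 when that library was left out (adjusted p = 0.0910).

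Cxcl5, Cxcl1 and Ccl2 were among the most abundant members, and for each the range over the Control lines was wider than the difference between the group means. Per length, in RPKM computed from the normalized counts and the exon length of each gene, Cxcl5 was the highest member in Control at a mean of 231 (range 61.0 to 536), followed by Mif at 128 (106 to 158), Cxcl1 at 96.0 (27.7 to 155), Il33 at 95.4 (53.2 to 162), Cxcl12 at 83.6 (50.8 to 131), Ccl2 at 61.9 (31.0 to 75.8) and Ccl7 at 30.4 (23.8 to 38.3). Neighbors in this order overlapped in their ranges over the 4 Control libraries, and the 536 of Cxcl5 was the library of Set 2. The order also depended on the length used. With the longest transcript as length, the Control means were 231 for Cxcl5, 159 for Mif and 121 for Cxcl12. They were 108 for Il33 and 96.2 for Cxcl1, which reversed the order of Cxcl1, Il33 and Cxcl12. In Notch3IC cells Il33 averaged 320 (252 to 431) and Cxcl12 191 (166 to 205), which placed them next after Cxcl5 at 361 (136 to 727). The value of 727 came from the Notch3IC library of Set 2. The range of Cxcl5 spanned those of Il33 and Cxcl12, so this order of means does not hold in every library. The 16 other members were at 7.00 or below in Control, with Il6 at 0.103 and Ccl20 at 0.144, so the genes with the largest log2 fold changes had levels far under those of Cxcl12 and Il33 in both conditions.

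**Figure D3:**
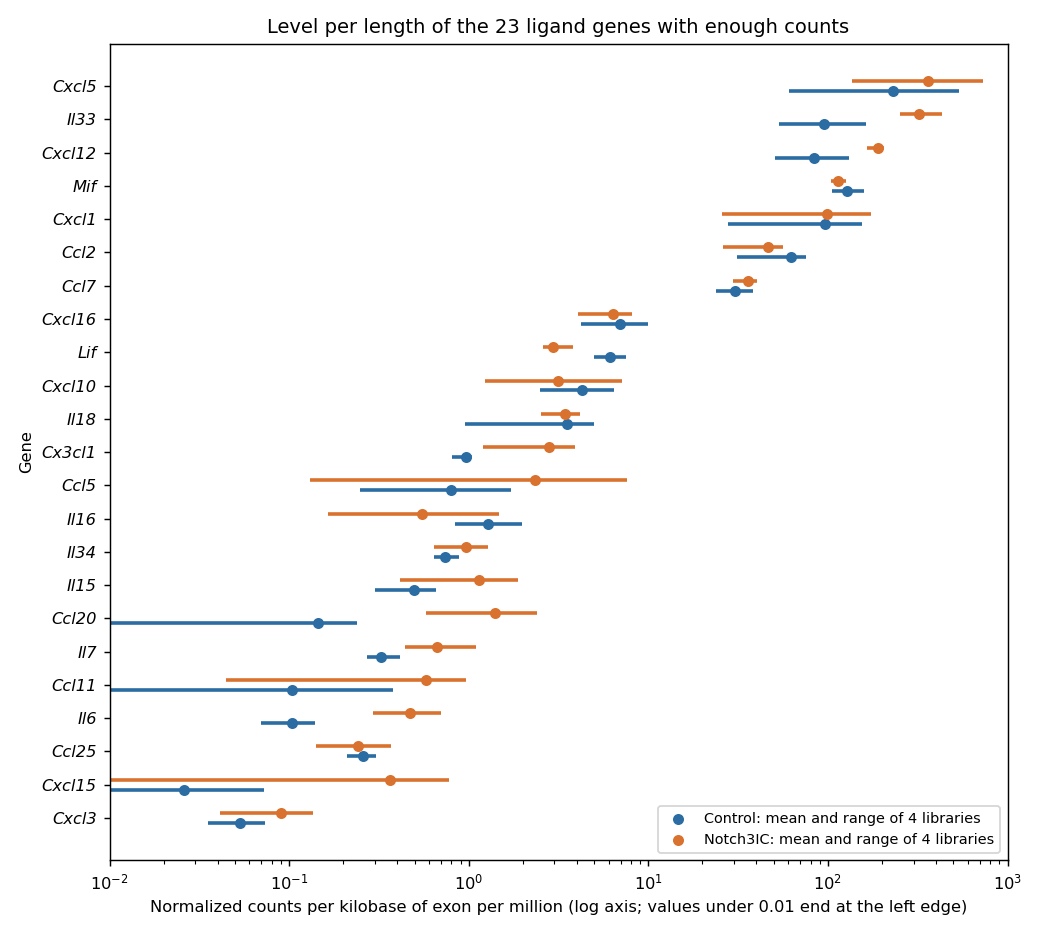
Level per length of the 23 described ligand genes in Control (blue) and Notch3IC (orange), as the mean (point) and range (line) of 4 libraries, in RPKM computed from normalized counts, on a log axis. Cxcl5, Il33, Cxcl12, Mif, Cxcl1, Ccl2 and Ccl7 form the upper group, and Il6, Ccl11 and Ccl20 lie in the lower part of the plot in both conditions.

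Cxcl5, a ligand of the neutrophil receptor CXCR2, had 2650, 23271, 6918 and 7336 normalized counts in Control and 5904, 31603, 9259 and 16009 in Notch3IC. Set 2 was the highest and Set 1 the lowest in both conditions, an 8.78-fold range among Control lines, and the groups overlapped. The Notch3IC line was the higher one in all 4 sets, with a log2 fold change of 0.64 (standard error 0.70, edgeR adjusted p = 0.694) and, with the block, 0.78 (adjusted p = 0.0360), under the fold limit. Leaving out 1 library of Set 2 moved the log2 fold change of Cxcl5, to 1.48 without the Control library and 0.048 without the Notch3IC library. Without the whole of Set 2 it was 0.88. Cxcl5 was called in none of these fits. Cxcl1, another CXCR2 ligand, had 1211, 6777, 4459 and 4343 in Control and 1123, 7598, 3412 and 5237 in Notch3IC. Its sets kept the same pattern in both conditions, with Set 1 lowest and Set 2 highest, and its log2 fold change was 0.05 (standard error 0.61), which became -0.01 with the block. The SD of its 4 within-set log2 ratios was 0.29, against an SD of 1.08 for log2 counts among the Control lines. For 7 of the 23 members the ratios within sets varied less than the Control lines did, Cxcl5 (0.41 against 1.28) and Ccl2 (0.17 against 0.61) among them.

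Ccl2, the main attractant of monocytes and macrophages (MCP-1), had 822, 1947, 1790 and 2013 normalized counts in Control and 687, 1441, 1493 and 1307 in Notch3IC. The groups overlapped through Set 1, and the Notch3IC line was the lower one in each set. Its log2 fold change was -0.42 (standard error 0.32, edgeR adjusted p = 0.554), and with the block -0.40 (adjusted p = 0.0361), under the fold limit. Ccl7, its neighbor in the same gene cluster and also a monocyte attractant, differed by 0.23 (standard error 0.19). Ccl2, Ccl7 and Ccl11 lie side by side with no other protein-coding gene between neighbors, and their fitted log2 fold changes were -0.42, 0.23 and 2.63. Mif, macrophage migration inhibitory factor, had 2746, 2139, 2177 and 1836 in Control and 1847, 2041, 2198 and 1797 in Notch3IC. These values overlapped (log2 fold change -0.17, standard error 0.13). Reads of Mif may be shared with its processed pseudogenes, depending on how they were counted.

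The other members tested were not called. Il15 had a log2 fold change of 1.22 (edgeR adjusted p = 0.243) and Ccl5 one of 1.55 (0.516), and in both the Notch3IC library of Set 2 was below its Control while the other sets were above. Ccl5, a T cell attractant, varied 6.97-fold among Control lines. Cxcl10, an interferon-induced T cell attractant, was higher in Notch3IC in Set 1 (log2 ratio 1.13) and lower in Sets 2, 3 and 4 (-1.02, -1.30 and -1.62). Il34, Il18, Ccl25 and Cxcl16 had log2 fold changes of 0.40, -0.04, -0.07 and -0.14. In the annotation 18.3% of the exon bases of Cxcl16 overlap Zmynd15 on the opposite strand. Cxcl3 and Cxcl15 met the count rule but not edgeR's filter. Cxcl15 had 0, 3, 0 and 2 raw counts in Control and 0, 7, 42 and 28 in Notch3IC.

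Within the sets, 9 of the 21 tested members were higher in Notch3IC in all 4 sets, 3 were lower in all 4 (Ccl2, Il16 and Lif) and 9 were mixed. Of the 12 with 1 direction, 8 had their smallest log2 ratio in Set 2 and none had the largest there. These counts were not made over all genes tested, so nothing particular to the members is read from them. Set 2 also had the smallest log2 ratio of Notch3, 3.51 against 6.79, 7.01 and 7.10 in Sets 1, 3 and 4. The other 4 had their smallest ratio elsewhere, Cxcl12 (0.34) and Ccl2 (-0.26) in Set 1, and Il6 (1.24) and Cxcl5 (0.42) in Set 3. In Set 2 the ratios of Cxcl12 and Il6 were 0.96 and 2.27. The median log2 ratio over the members was 1.13 in Set 1, -0.07 in Set 2, 0.29 in Set 3 and 0.54 in Set 4. With 1 library per condition in a set, the differences between sets were not tested.

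Among members below the count limit, the classical inflammatory cytokines were almost absent. Tnf had 0, 0, 1 and 0 counts in Control and 5, 0, 6 and 3 in Notch3IC. Il1a had 1 to 9 counts per library in both conditions, Il1b at most 1, Il10 at most 3, Il11 at most 4, Csf3 at most 7 and Tslp at most 7. Il25 was at 0 in every library but the Notch3IC libraries of Sets 3 and 4, with 25 and 8 counts. Cxcl9 had 14 and 9 counts in the same libraries and at most 4 elsewhere, and Ccl8 had 14 in the Notch3IC library of Set 4 and at most 3 elsewhere. Ccl9, Cxcl17, Ccl24, Il19, Il23a, Ccl17, Il12a, Ccl1, Ccl6, Cxcl14, Cxcl2, Il2, Il5, Il24, Ccl22, Cxcl13 and Il27 had at most 13 counts in any library. The 21 at 0 included Ccl3, Ccl4, Ccl19, Cxcl11, Csf2, Il4, Il13 and Il17a.

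The receptors of these ligands were read from lists of chemokine and cytokine receptors. The counts called in these and the following lists stand against 3.4% higher and 0.74% lower over all genes tested (5.19% and 2.53% with the block), and nothing particular to a list is read from them. Of 23 chemokine receptor genes in the tables, 4 passed the expression filter and 1 was called higher (median log2 fold change 0.49). This was Cxcr7, which encodes a scavenging receptor of CXCL12, with 124, 183, 60 and 39 raw counts in Control and 256, 346, 771 and 996 in Notch3IC. Its groups did not overlap, the difference was largest in Sets 3 and 4, and it rose by a log2 fold change of 2.46 (standard error 0.59, edgeR adjusted p = 0.0625). The call depended on Sets 3 and 4, since leaving out either library of either set lost it (adjusted p up to 0.185), as did leaving out either set (up to 0.391). Cxcr4, the signaling receptor of CXCL12, was at 0 in 7 libraries and had 3 counts in the Notch3IC library of Set 4. Ccr6, the receptor of CCL20, was at 0 in all 8, and Cx3cr1, the receptor of fractalkine, had at most 2 counts. Ccr7 was called lower with the block (adjusted p = 0.0414, against 0.235 without it).

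Of 45 cytokine receptor genes, 30 were tested, and 1 was called higher and 1 lower, 3.33% each (median log2 fold change 0.09). With the block 6 were higher and 3 lower. Csf1r, the receptor of CSF1 and IL-34, had 9, 10, 7 and 9 counts in Control and 36, 10, 22 and 28 in Notch3IC, and rose by a log2 fold change of 1.52 (standard error 0.38, edgeR adjusted p = 0.0719). Since 1 Control library reached 10 counts, Csf1r passed the expression filter through the Notch3IC libraries, and Il17re, described next, passed it through the Control libraries. Csf1r lost its call in each fit that left out a set other than Set 2 or a library of such a set (adjusted p up to 0.511). In the annotation 15.1% of its exon bases overlap Hmgxb3 on the opposite strand. Il17re, a subunit of the IL-17C receptor, had 27.7, 13.1, 48.8 and 24.6 normalized counts in Control against 5.6, 5.9, 6.4 and 2.5, and fell in Notch3IC cells (log2 fold change -2.49, standard error 0.48, adjusted p = 0.0365), a call lost without the Control library of Set 3 or 4 or the Notch3IC library of Set 4 (up to 0.125) and without Set 3 or 4 (up to 0.322).

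The receptor genes for the called interleukins were named for their ligands and did not pass both limits. Il1rl1, which encodes ST2, had 28, 13, 10 and 9 counts in Control and 18, 4, 2 and 11 in Notch3IC. Its partner Il1rap had no overlap between groups and an adjusted p of 0.0941, with a log2 fold change of 0.76 that was under the limit. Il6st, which encodes gp130, had 4686, 6481, 5225 and 4823 normalized counts in Control and 4753, 6416, 6586 and 6558 in Notch3IC. Lifr had 1380, 4949, 2798 and 2326 in Control and 2741, 5016, 3651 and 3138 in Notch3IC. The groups overlapped for both, and their log2 fold changes were 0.20 and 0.34. Il6ra had 70.8 to 278 normalized counts over the 8 libraries (log2 fold change -0.12).

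**Figure D4:**
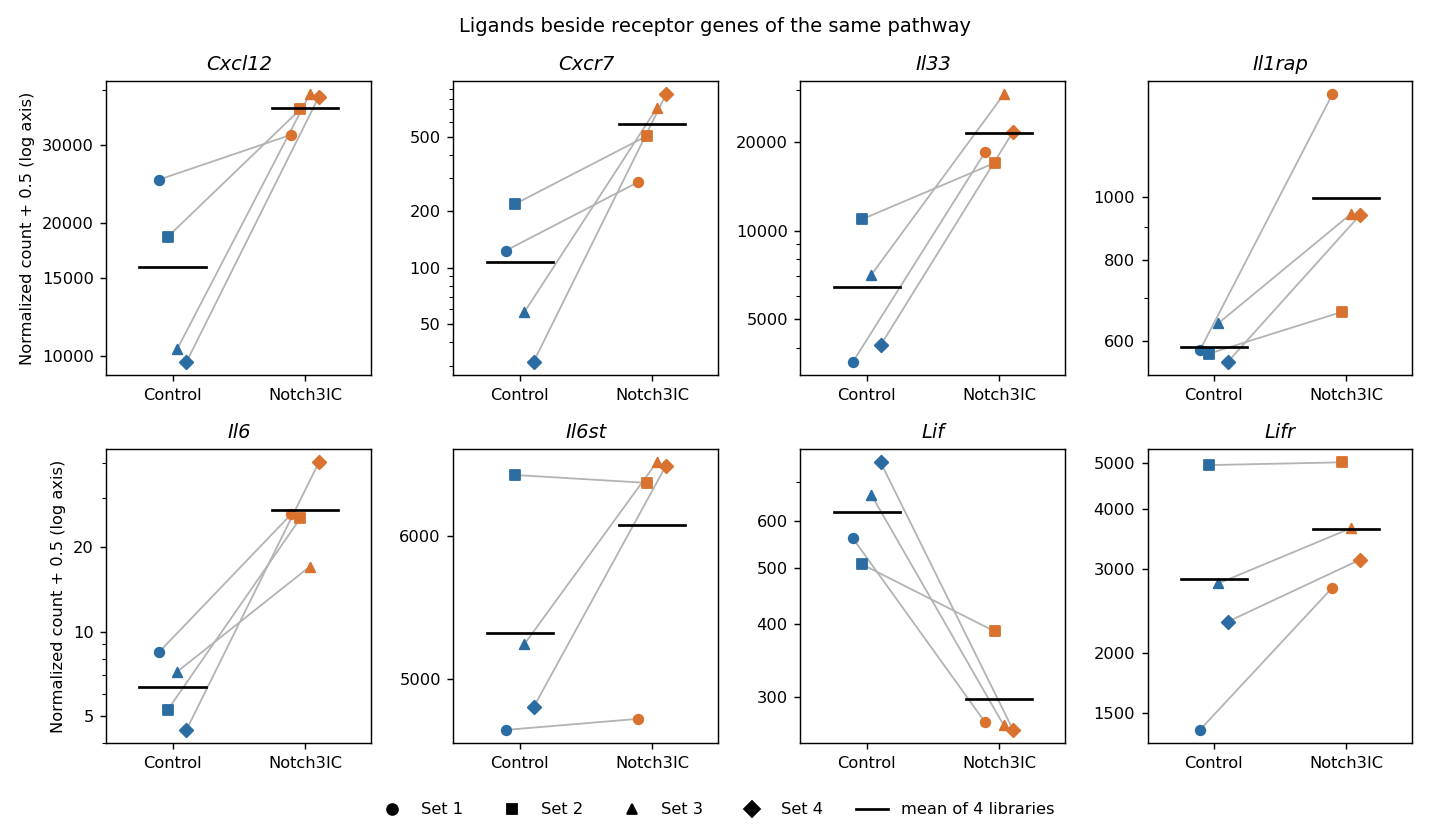
Normalized counts (plus 0.5, log axis, a different range in each panel) of Cxcl12, Il33, Il6 and Lif, each beside a receptor gene of its pathway (Cxcr7, Il1rap, Il6st and Lifr), in the Control (blue) and Notch3IC (orange) library of each set; black bars are means of 4 libraries. Cxcl12 and Cxcr7 both are higher in Notch3IC without overlap, while Il6st and Lifr overlap between groups.

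Of 16 genes for decoys, signaling inhibitors and cytokine mRNA decay, 13 were tested and 1 was called (median log2 fold change 0.36). Socs2, a feedback inhibitor of JAK-STAT signaling, had 51.5, 32.2, 48.8 and 26.9 normalized counts in Control and 194, 67.4, 174 and 138 in Notch3IC. It rose without overlap (log2 fold change 1.85, standard error 0.37, edgeR adjusted p = 0.0387), and lost its call without a library of Set 3 or 4 (up to 0.135) or without either set (up to 0.359). Socs3, the inhibitor induced by gp130 signaling, had 993, 1546, 1805 and 1439 in Control and 613, 1325, 1101 and 1132 in Notch3IC, where the groups overlapped.

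Among 31 other cytokine ligand genes, 12 were tested and 3 were called higher (median log2 fold change -0.06), all of the tumor necrosis factor family. Tnfsf11, which encodes RANKL, had 29.7, 17.9, 24.9 and 17.4 normalized counts in Control and 443, 61.5, 534 and 400 in Notch3IC. It rose by a log2 fold change of 4.00 (standard error 0.62, edgeR adjusted p = 0.0217), lost without the Control library of Set 3 (0.101) or without Set 3 or 4 (up to 0.286). Tnfsf15, which encodes TL1A, had 8.9, 8.4, 2.9 and 3.2 in Control and 52.5, 11.7, 103 and 115 in Notch3IC (a log2 fold change of 3.62, adjusted p = 0.0395). Tnfsf13b, which encodes the B cell factor BAFF, had 11.9, 6.0, 11.5 and 4.8 in Control and 25.7, 14.6, 25.7 and 27.9 in Notch3IC (1.47, adjusted p = 0.0802). Tnfsf15 reached 10 counts in none of the Control libraries and Tnfsf13b in 2, so both passed the expression filter through the Notch3IC libraries. In all 3 the groups did not overlap and the Notch3IC library of Set 2 was the lowest of its group. Tnfsf15 was not called without a library of Set 3 or 4 or without either set (adjusted p up to 0.381). Tnfsf13b was not called without any set other than Set 2, without any Notch3IC library other than that of Set 2, or without the Control library of Set 2, 3 or 4 (up to 0.561). Csf1, the macrophage growth factor and the most abundant of this list, had 13908 to 15909 in Control and 8202 to 15519 in Notch3IC, with the Notch3IC library of Set 2 inside the Control range.

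Of 28 genes for microbial sensing and the inflammatory response, 24 were tested and 1 was called (median log2 fold change -0.05). Icam1, an adhesion molecule induced through NF-kB, had 370, 685, 712 and 587 normalized counts in Control and 243, 290, 370 and 258 in Notch3IC. It fell by a log2 fold change of 1.02 in size (standard error 0.23, edgeR adjusted p = 0.0492), with the lowest Control and the highest Notch3IC library both at 370. Its call was lost without the Control library of Set 2, 3 or 4, the Notch3IC library of Set 1 or 4, or the whole of Set 2, 3 or 4 (adjusted p up to 0.430). It was not called with the block, where the fold was under the limit. Saa3, an acute-phase protein gene, was called lower with the block (adjusted p = 0.0215, against 0.481 without it). Tlr2, the receptor for bacterial lipoproteins, mycoplasma lipoproteins among them, had 182 to 273 in Control and 183 to 346 in Notch3IC (log2 fold change 0.22).

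Several defining markers of leukocytes and lymphocytes were at or near 0, while some genes of the marker lists had low counts in every library or in 1 set. Ptprc (CD45) was at 0 in 7 libraries and had 2 counts in the Notch3IC library of Set 1, and Emr1 (F4/80), Cd3e, Cd3g, Cd2 and Ms4a1 were at 0 in all 8. The summed normalized counts of 8 leukocyte markers were 47.9 ± 16.5 in Control and 54.6 ± 14.2 in Notch3IC (SD, n = 4 each), with Coro1a the most abundant. They were highest in both libraries of Set 2 (70.4 in Control and 71.8 in Notch3IC), where Cd52 had 15 and 14 raw counts, against 0 or 1 in the other 6 libraries. Those of 8 macrophage markers were 95.6 ± 30.6 and 93.0 ± 19.2, mostly Cd68, which had 31 to 150 raw counts per library. For 6 lymphocyte markers the sums were 0.88 ± 0.66 and 4.14 ± 2.45, mostly Cd79a, and for 5 endothelial markers 24.1 ± 10.3 and 35.5 ± 10.7, mostly Pecam1. Of these lists 2, 2, 0 and 2 genes were tested, and Csf1r alone was called. The part of cells of these types in the ligand differences was not tested.

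The labelled tissue, ovarian surface epithelium, was checked on 10 markers that it shares with mesothelium, all with counts. Summed over the list, led by Upk3b, Control lines had 30298, 51730, 78798 and 74870 normalized counts, against 15173, 34352, 31465 and 25857 for Notch3IC. Of the 9 tested, Msln, which encodes mesothelin, fell (log2 fold change -2.60, standard error 0.63, edgeR adjusted p = 0.0625), 7 were lower in all 4 sets, and 5 were called lower with the block (Gpm6a, Krt19, Lrrn4, Msln and Upk3b). Msln was not called without a library of Set 3 or 4 or without either set (adjusted p up to 0.493). The part of these markers in the ligand differences was not tested.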

How the data were processed

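Poly-A RNA of the 8 lines was sequenced as single-end reads. The authors deposited raw counts per gene symbol, 1 table per library, made with TopHat and Cufflinks on mm9 per the labels' processing notes. Tool versions, annotation and strandedness are not given in the sources used here. Members and gene lists were chosen with earlier results of these data known.

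Counts were fitted with edgeR 4.0.16 (TMM, filterByExpr, robust quasi-likelihood F test, R 4.3.3) with condition as the only term over 12430 genes. Calls needed a Benjamini-Hochberg adjusted p below 0.1 and a log2 fold change reaching 1 or -1. Standard errors are the fold change divided by the square root of the F statistic. Normalized counts are counts per TMM-scaled library size times the mean library size of 23323000, and within-set ratios were taken after adding 0.5. Exon lengths and overlaps are from GENCODE M21 and promoter windows from RefSeq, both on GRCm38, so no gene coordinates of mm9 are given. A set is a matched pair by the study's methods, which was checked by how its libraries deviated from their group means (correlation over genes 0.80, 0.40, 0.57 and 0.41 within sets, -0.50 to 0.37 across sets).

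Genes named with every library's value were the members called with or without the block, those without overlap between groups and the 6 with the highest mean count. Of each list the called genes were named, and further list genes were named after their values were seen. Alternatives were DESeq2 1.42.0, other normalizations and filters, the set as a block, other thresholds, and leaving out each library or set. All but the block had condition as the only term.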

Additional observations from a re-analysis of the deposited data

Results flagged for a closer look

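Single libraries far from the other 3 of their group were searched for in the 2 groups of each of 13 named members, 26 groups in all, of which chance gives about 1 in 20. There were 3, all in Set 2. In the Notch3IC group, the library of Set 2 had 388 normalized counts of Lif, where the other 3 had 263 to 271, and 271 of Il16, where the others had 30.2 to 57.4. In both genes it lay on the side of the Control libraries. Notch3 was the lowest of the Notch3IC group in this library, and its part in these values was not tested. In the Control group, the library of Set 2 had 9.54 normalized counts of Ccl11, where the others had 0 to 0.96.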

How the results depend on the processing

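The 5 members called higher and Lif kept their calls with RLE or upper-quartile normalization, library totals, no expression filter, 10 counts in 2 libraries, the replicate block, DESeq2 and no fold-change limit. The number called higher was 6 with the block (Ccl11 added). It was 7 with DESeq2, with Il7 and Cxcl15 added, and 6 among the members edgeR tested, since edgeR's filter left out Cxcl15. At an adjusted p under 0.05 with condition alone it was 3, with Ccl20 and Cxcl12 lost. With the block both were under 0.05 (edgeR adjusted p = 0.0255 and 0.0495). It was also 3 with 10 counts required in every library, a filter that removes Ccl20 and Il6 from the test. The number called lower was 2 with the block (Il16 added).

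Leaving out 1 library or 1 set, with condition as the only term, gave 0 to 7 members higher and 0 to 2 lower. It was 0 and 0 without the Control library of Set 3 or 4 or without Set 3 or 4, 1 (Il6) and 1 without the Notch3IC library of Set 3 or 4, and 7 and 2 without the Notch3IC library of Set 2. Fitted log2 fold changes of the 6 called members kept their sign throughout. Cxcl1, near 0 with condition alone, was -0.013 with the block and between -0.37 and 0.38 in these smaller fits.

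Over all genes, 423 were called higher and 92 lower with condition alone, 645 and 315 with the block, and 707 and 192 with DESeq2 and its own filter (574 and 179 among the 12430 genes edgeR tested). At an adjusted p under 0.05 there were 290 higher and 48 lower, and without the fold limit 622 and 210. Leaving out libraries or sets gave 0 to 702 higher and 0 to 305 lower. The cause of these shifts was not tested. The Control values of Ccl20, Il6, Ccl11, Cxcl3 and Cxcl15, with at most 10 counts in any Control library, rest on few reads.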
